A study of Homo sapiens with 6 samples.

Results

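The 10 genes described here encode the 8 subunits of the CCT chaperonin (TCP1, CCT2, CCT3, CCT4, CCT5, CCT6A, CCT7 and CCT8) and 2 subunits of prefoldin (PFDN2 and PFDN5). They were selected by gene name, with earlier results of these data known, and each was found as 1 gene among the 60624 genes of the expression table. The study asked what CEP20, a protein of the centrosome and the microtubules, does in lung cancer cells. RNA was sequenced from A549, an established human lung adenocarcinoma cell line, in 3 siCTR libraries transfected with a control siRNA and 3 siCEP20 libraries transfected with an siRNA against CEP20, all for 3 days. The labels call the cells of the second group a CEP20 knockdown, they also call the treatment of both groups a plasmid transfection, and they do not say which CEP20 siRNA was used or whether the replicates are separate cultures, so the p-values measure the spread between these libraries, which may be technical. Expression was given as TPM (a read abundance divided by transcript length and expressed as a share of the library), which allows levels of different genes to be compared but leaves the depth of each library unknown.

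CCT, also called TRiC, is an ATP-driven folding chamber of the cytosol made of a pair of stacked rings, and each ring holds every one of the CCT subunits. Newly made actin and tubulin need it to reach their native state, as do a number of WD-repeat proteins. Prefoldin is a smaller, tentacle-shaped complex that catches unfolded actin and tubulin as they leave the ribosome and hands them to CCT. One CCT complex needs its different subunits in equal number, although an mRNA level says nothing directly about the protein.

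The targeted gene, CEP20, had 29.2, 30.5 and 35.1 TPM in the siCTR libraries and 16.2, 15.3 and 17.3 TPM in the siCEP20 libraries. Its log2 fold change was −0.92 (SE 0.0915, limma adjusted p = 0.000205), which left 51.4% of the control level, and the groups did not overlap. Markers of A549 such as KRT7, KRT8, KRT18, AKR1B10 and ALDH1A1 were high in all 6 libraries, while the epithelial marker EPCAM was low, at 0.834 to 3.85 TPM. All 8 markers of this list passed the test, 5 as higher and 3 as lower, against 30.2% and 13.2% of all tested genes. EPCAM was called higher (1.10) and ALDH3A1 called lower (−0.93). With median-of-ratios scaling, described further on, KRT7 (0.015) and KRT18 (0.067) did not pass, and with quantile normalization AKR1B10 (−0.033) did not. The levels of these markers thus differed between the groups as deposited, and their part in the results was not tested. Of 8 markers of other cell types, 6 were at 0.195 TPM or lower in every library, among them PTPRC, which defines blood cells, PECAM1 and CDH5 of endothelium and SCGB1A1, which was listed at 0. The other 2, CD68 and COL1A1, were higher in siCEP20 libraries, and the summed level of the 8 was 20.6 to 29.0 TPM in siCTR and 46.8 to 63.0 TPM in siCEP20 libraries, and their part was not tested either. In siCTR replicate 1 and siCEP20 replicate 1 a mitochondrial pseudogene, MTATP8P1, took 2.39% and 5.13% of all TPM and was listed at 0 in the other 4 libraries. The median log2 fold change of the 14778 tested genes was 0.13, so the change of each subunit gene is also given relative to it.

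Of the 10 subunit genes, 7 were lower in siCEP20 libraries at an adjusted p under 0.05 (limma on log2(TPM + 1), all tested genes), against 13.2% of all tested genes, and 1 was higher, against 30.2%. The 7 were TCP1, CCT2, CCT3, CCT4, CCT7, PFDN2 and PFDN5, the 1 higher gene was CCT5, and CCT6A and CCT8 did not pass the test. With median-of-ratios scaling, which sets the median change of all genes to about 0, the counts were 8 lower and 1 higher, against 21.6% and 20.1% of all tested genes under that scaling. With the length and GC correction described further on they were 6 and 1, against 12.4% and 28.3%. The changes were small for CCT and larger for the 2 prefoldin genes. With the fold change threshold of the study's methods added (below 0.67 or above 1.5), PFDN5 was the 1 gene called lower, where 4.61% of all tested genes were, and none was called higher, where 11.2% were. The study used this threshold with DESeq2, which was not run here. With median-of-ratios scaling PFDN2 (−0.61, limma adjusted p = 0.00017) was called lower as well, where 1103 of 14778 tested genes were. With the length and GC correction none was called lower, where 519 of 14737 were. The 3 siCEP20 values lay entirely below the 3 siCTR values for 7 of the 10 genes and entirely above them for 1. Over all tested genes, those shares were 17% and 38.4%. Without MTATP8P1 the counts were again 7 and 1, and without the 2 libraries that held it they were 6 and 1, the gene lost being CCT2. Over all tested genes, 1915 of 14777 were lower and 4812 higher without MTATP8P1. Without the 2 libraries, 1271 of 14778 were lower and 2850 higher. The median log2 fold change of the 10 genes was −0.22. In a culture, fewer cells of a kind and less RNA of a gene per cell cannot be told apart.

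**Figure D1:**
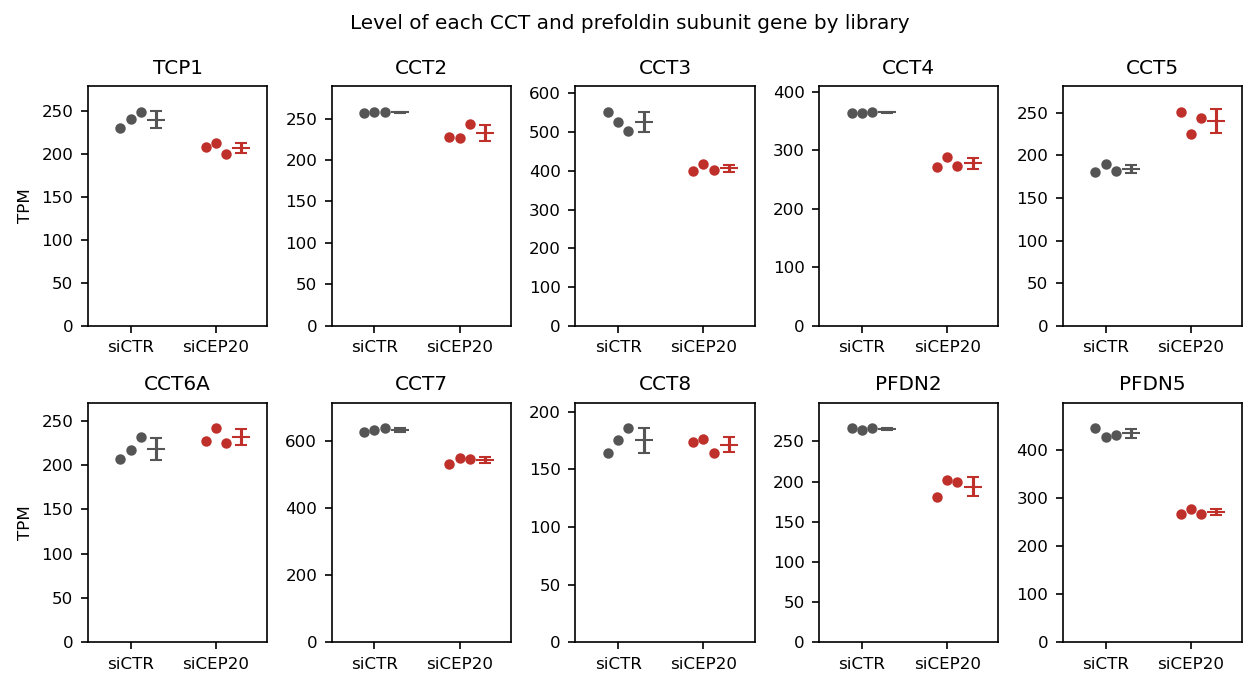
TPM (vertical axes, from 0) of each of the 10 subunit genes in the 3 siCTR (grey) and 3 siCEP20 (red) libraries, with each group's mean and SD beside the points. The siCEP20 points lie below the siCTR points for 7 genes, above them for CCT5, and among them for CCT6A and CCT8.

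CCT4 and CCT3, the delta and gamma subunits, fell the most among the CCT genes. CCT4 (ENSG00000115484, chr2:61868085-61888671, hg38, minus strand) had 364, 363 and 366 TPM in siCTR and 272, 288 and 272 TPM in siCEP20 libraries. Each siCEP20 library was below each siCTR library, and the siCTR libraries differed from each other by a few TPM. The mean went from 364 ± 1.19 to 278 ± 9.39 TPM (SD, n = 3), a log2 fold change of −0.39 (SE 0.0476, limma adjusted p = 0.000494). CCT3 (ENSG00000163468, chr1:156308968-156367873, minus strand) had 553, 526 and 502 TPM against 400.4, 418 and 403 TPM. Again the groups were apart, here with a wider spread among the controls. Its mean of 527 ± 25.5 fell to 407 ± 9.25 TPM (SD, n = 3), a log2 fold change of −0.37 (SE 0.0522, limma adjusted p = 0.000954). Relative to the median of all genes these changes were −0.52 for CCT4 and −0.50 for CCT3.

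CCT7, TCP1 and CCT2 fell by less. CCT7 (ENSG00000135624, chr2:73233420-73253021, plus strand), the eta subunit, was the most abundant of the 10 mRNAs in both groups. Its libraries held 627, 631 and 637 TPM in siCTR and 531, 549.4 and 546 TPM in siCEP20. The gap between the groups was wider than the range within either one, and the log2 fold change was −0.22 (SE 0.0428, limma adjusted p = 0.0042), or −0.35 relative to the median of all genes. TCP1 (ENSG00000120438, chr6:159778498-159789703, minus strand), the alpha subunit after which the family was named, had 230.0, 241 and 249 TPM against 208, 213 and 200.3 TPM. All siCEP20 libraries were below the lowest control, with a log2 fold change of −0.21 (SE 0.0536, limma adjusted p = 0.0136), or −0.34 relative to the median. CCT2 (ENSG00000166226, chr12:69585426-69601570, plus strand), the beta subunit, had 257, 258 and 258 TPM against 228, 227 and 243 TPM. The siCTR libraries were almost level and siCEP20 replicate 3 came closest to them. Its log2 fold change of −0.15 (SE 0.050, limma adjusted p = 0.0446) was the smallest that passed the test (−0.28 relative to the median), and leaving out any 1 library other than siCEP20 replicate 3 gave an adjusted p of 0.0772 to 0.131. Thus CCT2 stood close to the threshold, while TCP1 and CCT7 passed it with each library left out in turn.

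CCT5, the epsilon subunit, went the other way. The gene (ENSG00000150753, chr5:10249929-10266389, plus strand) had 180.4, 189.6 and 182 TPM in siCTR and 251, 225 and 244 TPM in siCEP20 libraries. Every siCEP20 library was above every siCTR library. The mean rose from 184 ± 5.01 to 240.2 ± 13.7 TPM (SD, n = 3), which is 131% of the control level. The log2 fold change was 0.38 (SE 0.0585, 95% interval 0.25 to 0.52, limma adjusted p = 0.0014), and it was 0.25 relative to the median of all genes. It remained positive with median-of-ratios scaling, at 0.23, and with correction for length and GC content, at 0.33.

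CCT6A and CCT8, the zeta and theta subunits, did not pass the test. CCT6A (ENSG00000146731, chr7:56051685-56063989, plus strand) had 207, 217 and 232 TPM in siCTR and 228, 242 and 225 TPM in siCEP20 libraries. The highest control lay among the siCEP20 values. The log2 fold change was 0.083 (95% interval −0.054 to 0.22, limma adjusted p = 0.293) and turned to −0.067 with median-of-ratios scaling. CCT8 (ENSG00000156261, chr21:29055805-29073797, minus strand), the least abundant of the 10 mRNAs in both groups, had 164, 175 and 186 TPM against 173, 177 and 164 TPM. These ranges overlapped for the most part. The log2 fold change was −0.030 (95% interval −0.17 to 0.11, limma adjusted p = 0.723), it was 0.013 without siCTR replicate 3, and median-of-ratios scaling gave −0.18 (adjusted p = 0.0209). Relative to the median of all genes, CCT6A was at −0.049 and CCT8 at −0.16. The intervals leave room for a modest change of either gene in either direction. A two-sided exact permutation test of 3 against 3 libraries gave p = 0.3 for CCT6A and p = 0.7 for CCT8, and p = 0.1, the smallest such a test can give, for each of the 8 genes whose groups did not overlap.

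The mix of CCT mRNAs was different in siCEP20 libraries. The summed level of the 8 CCT genes was 2582, 2601 and 2610.2 TPM in siCTR and 2292, 2338 and 2298 TPM in siCEP20 libraries. The sum fell from 2598 ± 14.4 to 2309 ± 25.0 TPM (SD, n = 3), to 88.9% of the control level. The log2 ratio of the sums was −0.17, and −0.32 with median-of-ratios scaling. Within the sum, which does not depend on the scale between libraries, CCT3 went from 20.3% ± 1.09 to 17.6% ± 0.209, and CCT4 from 14.0% ± 0.0637 to 12.02% ± 0.275. CCT7 went from 24.3% ± 0.0661 to 23.5% ± 0.288. In each of the 3 the siCEP20 shares were all below the siCTR shares. CCT5 had 6.99%, 7.29% and 6.96% of the sum in siCTR and 10.97%, 9.62% and 10.6% in siCEP20 libraries. The shares of CCT6A (8.41% ± 0.429 to 10.0% ± 0.284) and CCT8 (6.74% ± 0.375 to 7.42% ± 0.246) did not overlap either and were higher in siCEP20 libraries, although their TPM was not called different. The shares of TCP1 (9.24% and 8.96% on average) and CCT2 (9.91% and 10.1%) overlapped between the groups.

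**Figure D2:**
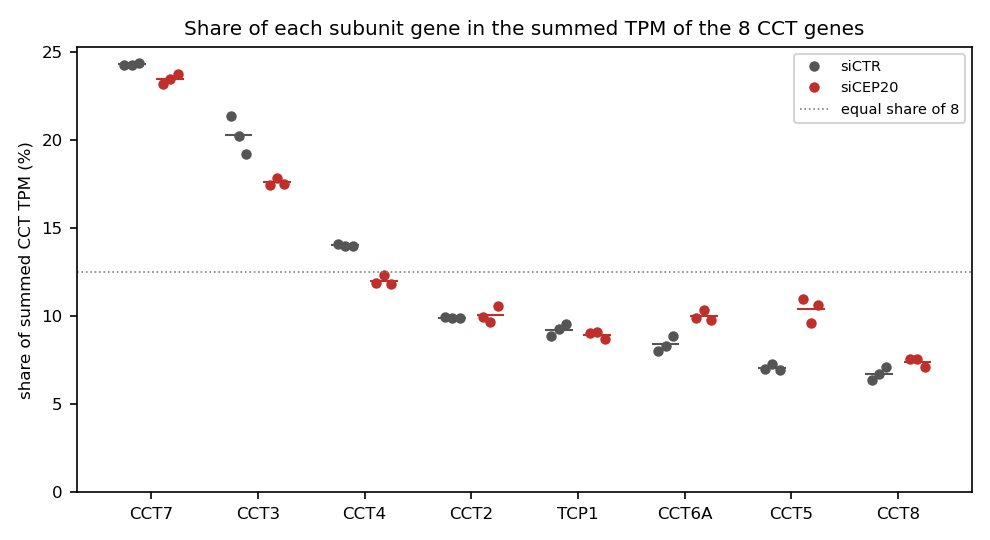
Share of each CCT gene in the summed TPM of the 8 genes (vertical axis, percent) in the 3 siCTR (grey) and 3 siCEP20 (red) libraries, with lines at the group means and a dotted line at an equal share. CCT3, CCT4 and CCT7 lost share, and CCT5, CCT6A and CCT8 gained share, without overlap between the groups.

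The levels of the subunits became more alike. The most abundant CCT mRNA stood 3.64 ± 0.159 times above the least abundant in siCTR and 3.17 ± 0.141 times in siCEP20 libraries (SD, n = 3). The coefficient of variation over the 8 subunit levels was 54.8%, 52.0% and 50.3% in siCTR and 41.7%, 43.5% and 43.8% in siCEP20 libraries, so the groups did not overlap. The ratio of CCT5 to CCT4, 0.496, 0.522 and 0.497 in siCTR libraries, was 0.924, 0.780 and 0.898 in siCEP20 libraries. The ratio of CCT5 to CCT3 went from 0.350 ± 0.0202 to 0.591 ± 0.0466. Ratios within a library carry no scaling between libraries, so they show unequal change and not which of the genes moved.

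In siCTR libraries the order of TPM from high to low was CCT7, CCT3, PFDN5, CCT4, PFDN2, CCT2, TCP1, CCT6A, CCT5 and CCT8. The ranges over the 3 libraries of neighbours in that order overlapped for TCP1 and CCT6A and for CCT5 and CCT8, and for no others. In siCEP20 libraries the order was CCT7, CCT3, CCT4, PFDN5, CCT5, CCT2, CCT6A, TCP1, PFDN2 and CCT8. There CCT4 and PFDN5, CCT5 and CCT2, CCT2 and CCT6A, and TCP1 and PFDN2 were not separated by their ranges. CCT5 thus moved from the second lowest place to the middle, and PFDN2 from the middle to the second lowest. All 10 genes were strongly expressed, each above 93.7% of the tested genes in mean level.

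The 2 prefoldin genes had the largest decreases of the 10, except that CCT4 and CCT3 fell more than PFDN2 with the length and GC correction described further on. PFDN5, an alpha-type subunit also known for binding the transcription factor MYC, lies at chr12:53295291-53299452 on the plus strand (ENSG00000123349). It had 446, 428 and 432 TPM in siCTR and 267, 278 and 267 TPM in siCEP20 libraries. No siCEP20 library came near the controls, and the spread within each group was small. The mean fell from 435 ± 9.66 to 271 ± 6.34 TPM (SD, n = 3), to 62.2% of the control level, with a log2 fold change of −0.68 (SE 0.0469, limma adjusted p = 5.22e-05). PFDN2, a beta-type subunit, lies at chr1:161100556-161118055 on the minus strand (ENSG00000143256). Its libraries held 266, 264 and 266 TPM in siCTR and 180.3, 202 and 199 TPM in siCEP20. The controls were almost level, and siCEP20 replicate 1 was the lowest of all. The log2 fold change was −0.46 (SE 0.0573, limma adjusted p = 0.000566), leaving 72.9% of the control level. Relative to the median of all genes the changes were −0.81 for PFDN5 and −0.59 for PFDN2.

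The 4 other prefoldin genes did not move as one. PFDN6, a beta-type subunit, had 105.8, 92.5 and 101 TPM in siCTR and 60.5, 63.5 and 61.7 TPM in siCEP20 libraries. It was called lower, with the groups far apart and a log2 fold change of −0.68 (SE 0.0664, limma adjusted p = 0.000193), but with the length and GC correction it was −0.47 and no longer past the fold change threshold. PFDN1, another beta-type subunit, was higher by 0.15 on the log2 scale (limma adjusted p = 0.0424), close to the median of all genes, and lost its call with median-of-ratios scaling (0.0046). VBP1, the other alpha-type subunit, had a log2 fold change of −0.13 (limma adjusted p = 0.126), and PFDN4 had one of 0.026 (limma adjusted p = 0.871), which was −0.12 with median-of-ratios scaling. The TPM ratio of PFDN5 to PFDN6 was 4.37 ± 0.221 in siCTR and 4.38 ± 0.0418 in siCEP20 libraries, while the ratio of PFDN5 to PFDN1 went from 5.04 ± 0.195 to 2.81 ± 0.0830 (SD, n = 3). PFDN5, PFDN2 and PFDN6 have transcripts of 596, 598 and 734 bases, and PFDN1, VBP1 and PFDN4 longer ones of 1336, 1616 and 1230 bases. The part of transcript length in these ratios was not tested. The summed level of the 6 prefoldin genes fell from 1000.2 ± 11.4 to 732 ± 23.7 TPM.

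PFDN2 and PFDN6 also belong to a prefoldin-like complex with URI1, UXT and PDRG1, which joins the R2TP co-chaperone of HSP90 in assembling large complexes such as RNA polymerases. Of 9 genes of these complexes outside prefoldin, 3 passed the test as lower and 2 as higher (13.2% and 30.2% of all tested genes), and their median log2 fold change was −0.070. Median-of-ratios scaling gave 5 lower and 1 higher (21.6% and 20.1% of all), and the length and GC correction 2 and 2 (12.4% and 28.3% of all). UXT had 156, 153 and 138 TPM in siCTR against 88.1, 93.8 and 90.5 TPM in siCEP20 libraries and was called lower (log2 fold change −0.71, limma adjusted p = 0.000139). PDRG1 had 31.7, 29.0 and 29.6 TPM against 19.3, 17.9 and 16.2 TPM and was called lower as well (−0.73, limma adjusted p = 0.000415). In both, the siCEP20 libraries were well below the siCTR libraries. With the length and GC correction UXT was −0.49, no longer past the fold change threshold, and PDRG1 was −0.70. PIH1D1, an adaptor of R2TP, fell by 0.24 on the log2 scale and lost its call with the length and GC correction (−0.10, adjusted p = 0.296). URI1, the scaffold of the prefoldin-like complex, rose by 0.24 and lost its call with median-of-ratios scaling (0.090). RPAP3, the R2TP scaffold, rose by 0.47. Thus PFDN2, PFDN6, UXT and PDRG1 of the prefoldin-like complex were lower and its scaffold URI1 was higher as deposited. POLR2E (−0.070), DNAAF10 (0.13), RUVBL1 (−0.17) and RUVBL2 (0.045) of this list did not pass as deposited (limma adjusted p = 0.378, 0.533, 0.0686 and 0.479). PFDN2, UXT and PFDN6 have transcripts of 598, 595 and 734 bases, and 28.9% of tested genes of 500 to 1000 bases were lower.

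The cofactors of CCT, phosducin-like proteins and a thioredoxin-domain protein that bind the chaperonin during its folding cycle, gave no call. PDCL had a log2 fold change of −0.19 (limma adjusted p = 0.0833), PDCL3 one of 0.041 and TXNDC9 one of −0.055, and PDCL2 was listed at 0 in all libraries. Their median of −0.055 was, like that of the CCT subunits (−0.18), below the 0.13 of all tested genes. With median-of-ratios scaling 2 of the 3 tested cofactors passed as lower (21.6% of all tested genes). With the length and GC correction 1 did (12.4% of all), and the median of the cofactors was 0.0015.

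Most actin and tubulin clients were higher. Of 13 actin and tubulin genes, 12 were higher at an adjusted p under 0.05 and none was lower (30.2% and 13.2% of all tested genes), and the median log2 fold change was 0.43. With median-of-ratios scaling 10 were higher and none was lower (20.1% and 21.6% of all), and the median was 0.28. TUBA4A, an alpha-tubulin, had 116, 127 and 137 TPM in siCTR and 342, 344 and 418 TPM in siCEP20 libraries and was called higher (1.53, SE 0.0935, limma adjusted p = 3.78e-05). TUBA1A, another alpha-tubulin, was also called higher (0.82, SE 0.0601, limma adjusted p = 6.28e-05). The cytoplasmic actins ACTB and ACTG1, by far the most abundant clients, rose by 0.54 and 0.52 on the log2 scale, and TUBB4B, a beta-tubulin, was the 1 gene that did not pass (0.025, limma adjusted p = 0.733). Per TPM of CCT mRNA there were 4.31, 5.22 and 5.23 TPM of these clients in siCTR and 7.61, 8.05 and 7.89 TPM in siCEP20 libraries, so this ratio was higher in every siCEP20 library. It mostly reflects actin, since ACTB and ACTG1 together averaged 9672 of 12788 client TPM in siCTR and 13847 of 18131 in siCEP20 libraries. Actins and tubulins have near-identical copies, and TUBA1A and TUBA1C overlap on opposite strands, so how reads were divided among them is uncertain.

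Clients of the WD-repeat class and other known clients moved less. Of 18 such genes, 8 were higher, 1 was lower and 9 did not pass (30.2% and 13.2% of all tested genes were higher and lower). Their median log2 fold change of 0.17 was near the 0.13 of all genes, and median-of-ratios scaling gave 4 higher and 4 lower (20.1% and 21.6% of all). PPP2R2A, a regulatory subunit of protein phosphatase 2A, was the 1 gene called higher, with 34.05, 39.1 and 35.5 TPM in siCTR and 67.3, 52.3 and 48.5 TPM in siCEP20 libraries (0.60, limma adjusted p = 0.00475). It was just past the fold change threshold, and fell short of it, at 0.46 to 0.54, with median-of-ratios scaling, quantile normalization, the length and GC correction and without ribosomal protein genes. The 1 lower gene was GNB5, a G protein beta subunit, at −0.51 (limma adjusted p = 0.000813).

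**Figure D3:**
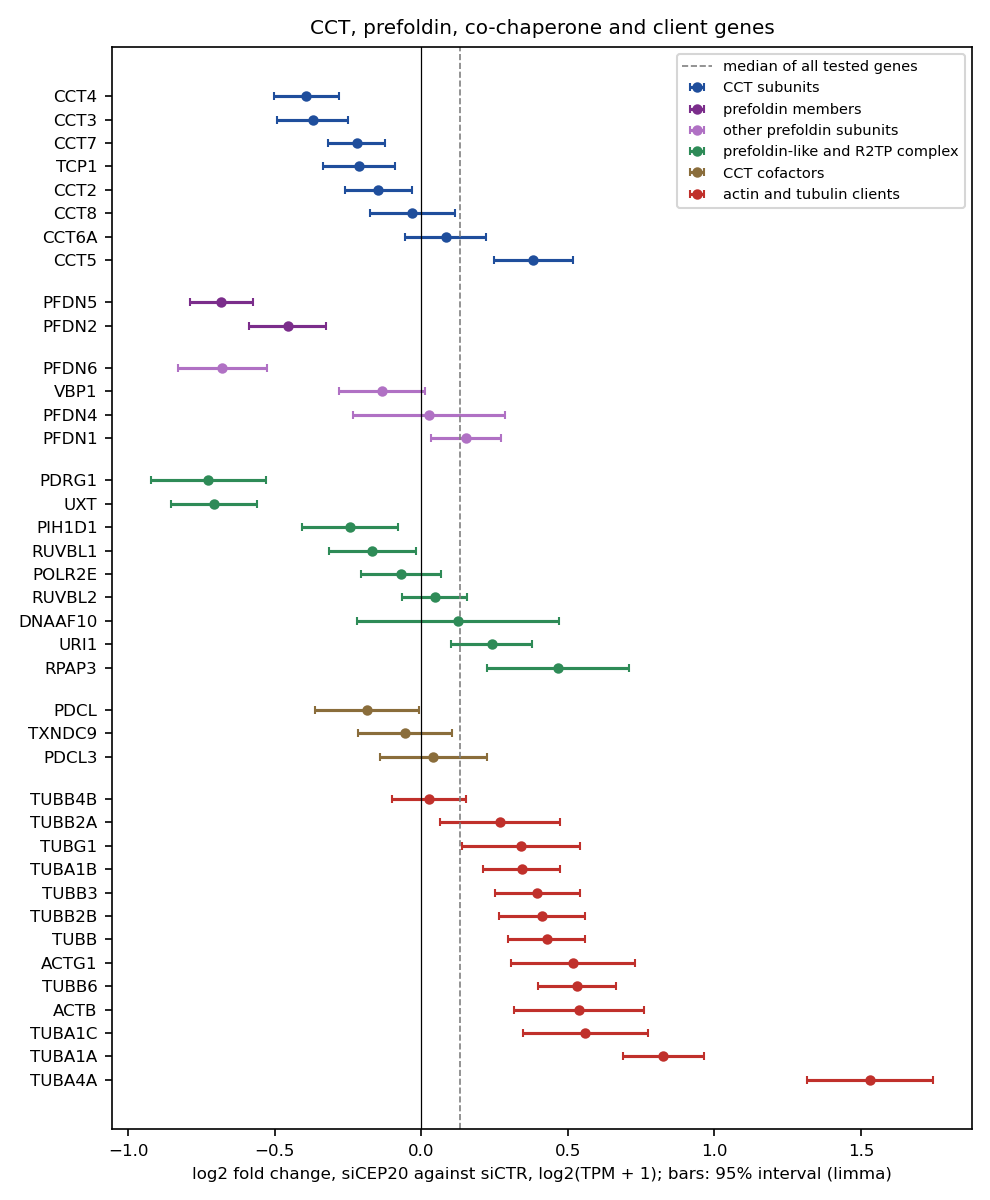
Log2 fold change of siCEP20 against siCTR (horizontal axis, log2(TPM + 1) scale) for CCT and prefoldin subunit genes, their partners and the actin and tubulin clients, with 95% limma intervals; the dashed line is the median of all tested genes, 0.13. CCT4 and CCT3 lie farthest to the left among CCT genes, PFDN5, PFDN6, UXT and PDRG1 lie near −0.7, and 12 of the 13 clients lie to the right of 0 beyond their intervals.

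Group II chaperonins such as CCT have relatives that fold other proteins, and these were compared next. HSPD1 and HSPE1 encode the chamber and the lid of the mitochondrial chaperonin and share 1 divergent promoter region, and their annotated spans overlap on opposite strands, so how reads were divided between them is uncertain. HSPD1 rose by 0.42 on the log2 scale (limma adjusted p = 0.0018) while HSPE1 was lower (−0.41, limma adjusted p = 0.00707), and their ratio went from 1.47 ± 0.211 to 2.60 ± 0.00700 (SD, n = 3). Their transcripts have 2245 and 557 bases. The median log2 fold change was 0.12 for tested genes of 2000 to 3000 bases and −0.076 for those of 500 to 1000. The part of length in this ratio was not tested. BBS10, a chaperonin-like protein of cilium assembly, was higher (0.37, limma adjusted p = 0.0422) but not with median-of-ratios scaling (0.24, adjusted p = 0.128), and its partners BBS12 (0.22, limma adjusted p = 0.165) and MKKS (−0.12, limma adjusted p = 0.408) did not pass. CCT6B, the testis form of the zeta subunit, was at 0.947 to 3.47 TPM, far below CCT6A, with a log2 fold change of −0.20 (limma adjusted p = 0.66).

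Promoter sequences of the subunit genes were examined next. RefSeq promoter windows (GRCh38.p14, 250 bases before to 50 after a start) were matched for 8 of the 10 genes, in 10 windows, with none for CCT6A and PFDN2. GAANNTTC, a head-to-head part of the heat shock element and labelled by that name below, reads the same on both strands. These letters were present in windows of TCP1 and CCT2 and in 6.77% of all 35116 promoters, and a full element was not sought. The CCAAT box bound by NF-Y, sought on both strands, was present in windows of TCP1, CCT2, CCT3 and CCT8, and in 34.6% of all promoters. Of these 4 genes, TCP1, CCT2 and CCT3 fell, whereas CCT8 did not pass the test. CCT4, CCT7 and PFDN5, which also fell, had no CCAAT box in their windows, and neither had CCT5, which rose. The ETS core CCGGAA, on either strand, was present in CCT5, which rose, in PFDN5 and CCT2, which fell, and in 17.2% of all promoters. The capitals mark the motif (read as its reverse complement it is ATTGG or TTCCGG), and each line is written 5′ to 3′ on the strand of the gene.
TCP1 heat shock element (chr6:159789815-159789844, minus strand, 231 bases before the start, upstream of the gene): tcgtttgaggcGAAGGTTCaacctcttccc
CCT2 heat shock element (chr12:69585789-69585818, plus strand, 89 bases before the second start, in an exon of other GENCODE transcripts): cccggagcgaaGAAATTTCtagtgtgggac
TCP1 CCAAT box (chr6:159789739-159789768, minus strand, 154 bases before the start, upstream of the gene): atcggctatctaATTGGacaaaaatgccga
CCT2 CCAAT box (chr12:69585356-69585385, plus strand, 91 bases before the first start, upstream of the gene): gcccgtggggctCCAATcaaaatgggacgc
CCT3 CCAAT box (chr1:156338350-156338379, minus strand, 75 bases before the start, in an intron of longer transcripts): ctaaggctgtcaATTGGtctgtttttgtgc
CCT8 CCAAT box (chr21:29073694-29073723, minus strand, 63 bases before the start, in an exon of other transcripts): aagggtgggctaATTGGagagccaggaaga
CCT5 ETS core (chr5:10250313-10250342, plus strand, 212 bases before the start, in an exon of other transcripts): ggggggaagtaaTTCCGGttgttgcaccat
PFDN5 ETS core (chr12:53295429-53295458, plus strand, 101 bases before the start, in an exon of another transcript): cccctccttcccTTCCGGgacggaggatca

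Of the other motifs sought, TTCNNGAA, a tail-to-tail part of the heat shock element, was in a window of CCT4 (7.74% of all promoters), after its start. The MYC E-box CACGTG was in none of the 8 genes' windows (7.26% of all promoters), which says no more than that these letters are not there. The GC box GGGCGG was in windows of 5 of the 8 genes (45.0% of all promoters), and the YY1 core AAGATGG in 1 of CCT2 (5.84% of all promoters). A match is a description of the letters and not evidence of binding.

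Transcript length moved with the fold change over all genes, and the subunit genes differ in length. Over 14737 tested genes with an annotated length, Spearman's rho of canonical transcript length with log2 fold change was 0.254, a correlation across genes, which share libraries and are not independent. PFDN5 and PFDN2 have short transcripts of 596 and 598 bases. Among the 1449 tested genes of 500 to 1000 bases, the median log2 fold change was −0.076, and the test gave 28.9% lower and 14.0% higher. CCT5, the 1 subunit gene that rose, has the longest transcript, 3293 bases, and among the 6939 genes over 3000 bases the median was 0.22, with 38.8% higher. The 4 CCT genes of 1500 to 2000 bases, CCT2, CCT3, CCT7 and CCT8, belong to a class with a median of 0.061, and TCP1, CCT4 and CCT6A, of 2000 to 3000 bases, to one with a median of 0.12. With a correction for length and GC content in each library, PFDN5 went from −0.68 to −0.47 and PFDN2 from −0.46 to −0.25, while CCT4 was −0.41 and CCT3 −0.34. PFDN5 was then no longer past the fold change threshold, and the part of length in these results was not tested further.

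**Figure D4:**
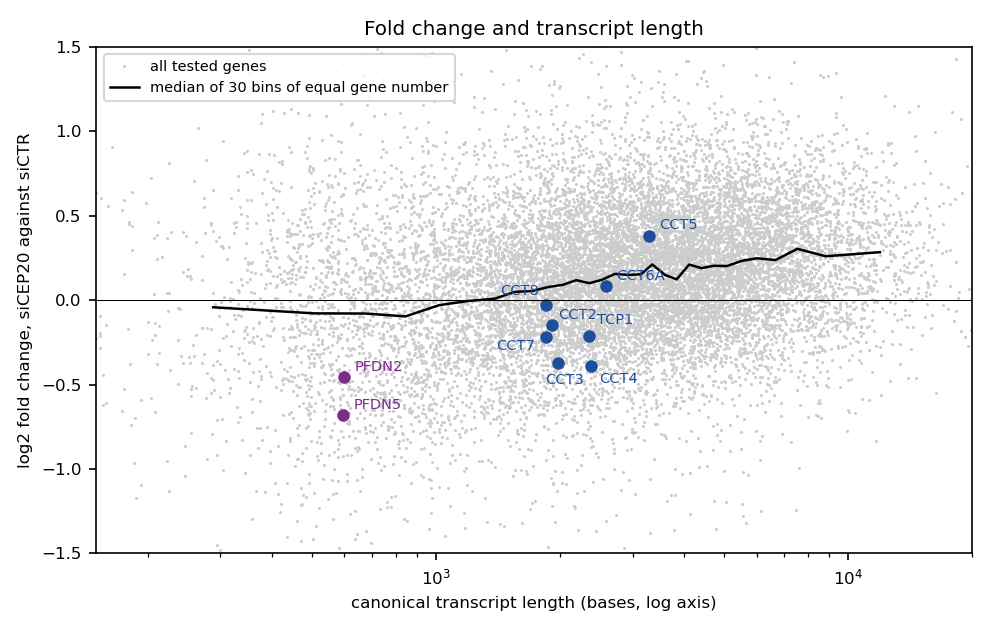
Log2 fold change (vertical axis, cropped at both ends) against canonical transcript length (horizontal log axis, bases) for the tested genes (grey), with the median in bins of equal gene number (line), CCT genes (blue) and prefoldin genes (purple). PFDN2 and PFDN5 sit at the short end below the line, CCT5 sits above it at 3293 bases, and CCT3 and CCT4 lie farthest below it among the CCT genes.

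**Figure D5:**
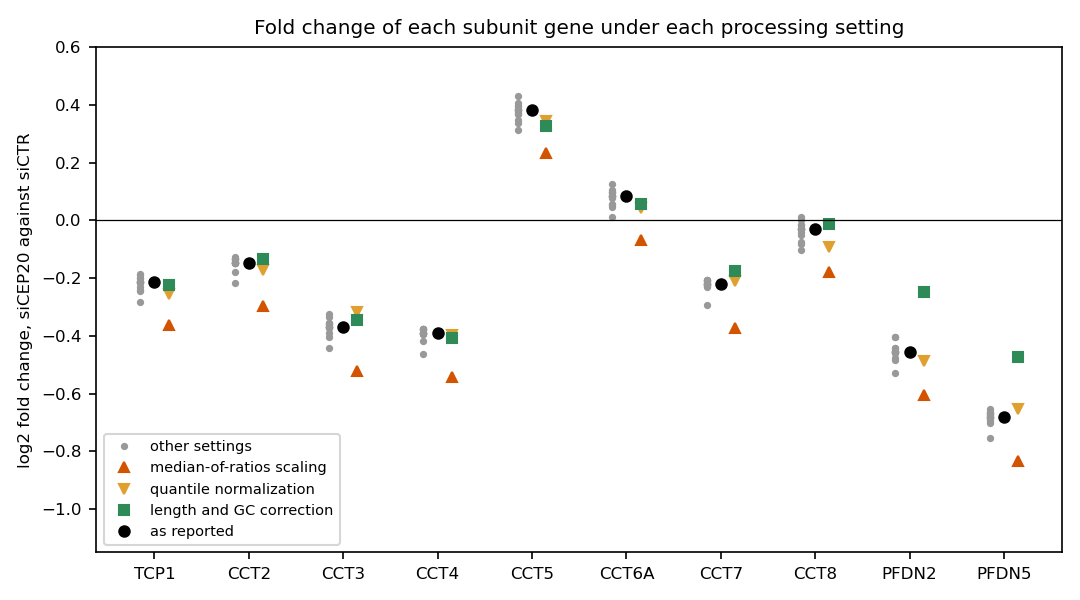
Log2 fold change (vertical axis) of each of the 10 genes as reported (black) and under each alternative processing (grey points, and coloured symbols for the scalings and the length and GC correction). The 7 lower genes and CCT5 keep their sign under every alternative shown, whereas CCT6A and CCT8 fall on both sides of 0.

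Other annotated genes that could share reads with the subunit genes were looked up. The 14 annotated pseudogenes named after these genes summed to at most 7.05 TPM in any library. ACAT2, on the strand opposite to TCP1, overlaps it and had 61.1 to 79.3 TPM with a log2 fold change of 0.066 (limma adjusted p = 0.602), whereas the small nucleolar RNA genes inside TCP1 and CCT6A were at 0.872 TPM or lower. TSACC overlaps CCT3 on the other strand at 2.18 to 5.43 TPM, and MYG1-AS1 overlaps PFDN5 on the other strand at 1.47 to 3.44 TPM. A lncRNA gene, ENSG00000288663, overlaps PFDN5 on the same strand, with its start 50 bases away. It has no entry in the expression table, so reads from it cannot be told from those of PFDN5. The lncRNA genes that overlap CCT4, CCT5 and CCT8 were at 2.099 TPM or lower in every library. Whether the counting used strand is not given in the sources used here.

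The mean course of the 8 CCT genes over the 6 libraries was compared with that of 12183 protein-coding genes outside the lists. The 5 most alike by Pearson's r of log2(TPM + 1) were NDRG4 (0.997), MYL6B (0.997), ACSL1 (0.996), ABCA1 (0.996) and CA8 (0.996). These r values are a description over 6 libraries that fall into 2 groups, and 544 genes had r above 0.95. Among the subunits themselves, TCP1 followed the mean at r = 0.991, CCT4 and CCT7 both at 0.976, and CCT5 at −0.952. CCT8 (0.477) and CCT6A (−0.368) followed it least, and PFDN5 (0.959) and PFDN2 (0.953), which are not part of the mean, followed it too.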

How the data were processed

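Per the labels and the study's methods, the authors trimmed the reads with fastp 0.20.1, aligned them to hg38 with HISAT2 2.1.0 and quantified genes with StringTie 2.0. The deposited values are TPM per Ensembl gene for the 6 libraries. The annotation they used is not given in the sources used here. TPM is a share of a fixed total and holds no counts, so depth is unknown, no counting interval was computed, and precision rests on 3 libraries per group. The authors' DESeq2 test needs counts and was not run.

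Genes were matched to GENCODE 44 by Ensembl identifier. The siCEP20 and siCTR values of log2(TPM + 1) were compared, for genes averaging 1 TPM or more, with limma 3.58.1 in R 4.3.3 (eBayes with a trend, Benjamini-Hochberg over all 14778 genes, two-sided). Fold changes are on this scale, which understates those of low genes. All 10 members passed the filter. MKKS, listed more than once, was taken from the entry with the highest mean. The members and partner lists were chosen with earlier results of these data known. Named were all members, CEP20, every gene of lists of 6 or fewer, in other lists those past both thresholds, else the 3 with the smallest adjusted p, genes overlapping a member, and the 5 nearest patterns. ACTB, ACTG1, TUBB4B, URI1, RPAP3, PIH1D1, POLR2E, DNAAF10, RUVBL1, RUVBL2, GNB5, BAG1, HSPA1A, HSPA1B and the divergent neighbours were named after their values were seen. Of 66 partner genes, 28 overlap another tested gene. Alternatives covered the pseudocount, filter, scaling, variance prior, replicate number, left-out libraries, length and GC content, and gene type.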

Additional observations from a re-analysis of the deposited data

How the results depend on the processing

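The direction and call of TCP1, CCT3, CCT4, CCT5, CCT7, PFDN2 and PFDN5 at an adjusted p under 0.05 held under all 18 alternatives. The number of subunit genes past both thresholds in the lower direction was 1, against 2 with median-of-ratios scaling, 0 with the length and GC correction and 0 at a fold change under 0.5. CCT2 (−0.15 as reported) lost its call without a filter on TPM (−0.15), without a trend (−0.15), with the length and GC correction (−0.13) and without both replicate 1 libraries (−0.14). Leaving out 1 library gave −0.18 to −0.13, and CCT2 kept its call without siCEP20 replicate 3 (−0.18) and lost it without any other. CCT6A turned to −0.067 and CCT8 to −0.18 with median-of-ratios scaling, and CCT8 was −0.084 to 0.013 with 1 library or both replicate 1 libraries left out (0.013 without siCTR replicate 3, 0.0012 without siCEP20 replicate 3). The number of CCT genes entirely above the controls was 1 to 2 with 1 library left out, 2 without siCTR replicate 3. Of all 14778 tested genes, 6578 lay entirely above the controls without siCTR replicate 3, against 5674 with all libraries. The log2 ratio of summed CCT TPM, −0.17, was −0.32 with median-of-ratios scaling, −0.24 without ribosomal protein genes, and −0.16 both for protein-coding genes alone and without MTATP8P1. Of the 65 partner genes tested, 7 were lower and 31 higher, against 15 and 20 with median-of-ratios scaling, 11 lower with quantile normalization and 4 lower without both replicate 1 libraries. Of all 14778 tested genes, 13.2% were lower and 30.2% higher, against 21.6% and 20.1% with median-of-ratios scaling. With quantile normalization 2938 of the 14778 were lower, and without both replicate 1 libraries 1271 were. Median-of-ratios scaling removed the median shift of all genes by construction and gave 894 genes called higher and 1103 lower past both thresholds, against 1659 and 682. For the other changes the cause was not tested. The 2 alternatives on MTATP8P1 and the replicate 1 libraries were chosen after seeing the data.

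Same-numbered libraries deviated together with r of 0.157, −0.0614 and −0.0623, and differently numbered ones with r of −0.121 to 0.170. The numbers were therefore not taken to pair the samples. MTATP8P1, above 0 in only the replicate 1 library of each group, was a feature shared by same-numbered libraries, so pairing was not settled. With the replicate number as a block, CCT2 (−0.15, adjusted p = 0.0596) lost its call and no other subunit gene did, and 1857 genes passed as lower and 4274 as higher, against 1944 and 4457.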

Other observations

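Other chaperones of the cytosol, which receive or fold proteins beside CCT, were examined with the factor that controls many of them. Of 12 genes of this list, 6 passed the test (limma) as higher and 1 as lower (30.2% and 13.2% of all tested genes), and their median log2 fold change was 0.23, against 0.13 for all tested genes. With median-of-ratios scaling 4 were higher and 1 lower (20.1% and 21.6% of all). HSP90AA1, the inducible cytosolic HSP90, had 269, 332 and 326 TPM in siCTR and 443, 462 and 456 TPM in siCEP20 libraries, without overlap (0.56, limma adjusted p = 0.00109). DNAJB1, a co-chaperone of HSP70, was higher by 0.31 on the log2 scale (limma adjusted p = 0.00292), and HSF1, the heat shock transcription factor, by 0.36 (limma adjusted p = 0.00318). The 1 lower gene was BAG1, a nucleotide exchange factor of HSP70, at −0.25 (limma adjusted p = 0.0103). The stress-inducible HSPA1A and HSPA1B, near-identical copies whose reads may be divided between them, did not pass (0.18 and 0.13), and their highest levels, 53.2 and 44.9 TPM, were in siCTR replicate 2.

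Several subunit genes start close to a gene on the other strand, and these neighbours were looked at within 1000 bases. MRPL18, a mitochondrial ribosomal protein gene whose start is 865 bases from that of TCP1, was lower (−0.44, limma adjusted p = 0.00134), like TCP1. NIT1, 68 bases from the start of PFDN2, was lower too (−0.51, limma adjusted p = 0.00505). PSPH, of serine synthesis, 321 bases from CCT6A, was lower (−0.31, limma adjusted p = 0.00469) while CCT6A did not pass. ATPSCKMT, 392 bases from CCT5, did not pass (0.33, limma adjusted p = 0.0819), and TSACC, 234 bases from CCT3, was higher (0.63, limma adjusted p = 0.0232) where CCT3 was lower.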
